A study of Homo sapiens with 23 samples.

Results

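In the V5 ChIP-seq of MCF10A lines expressing V5-tagged p53, 1632 of 41039 peaks lay on scaffolds, the assembled stretches of GRCh38 that have no place within a chromosome. They were chosen as the rows of the 5 peak lists whose sequence name is not 1 to 22, X, Y or MT, and a row here is 1 summit with its fold enrichment over input and its q. Scaffolds make up 0.372% of the bases of the reference, but they held 32.2% of the R273C list, 12.9% of Y220C, 13.1% of Y234C, 3.44% of WTOE and 2.07% of R273H. Most of these peaks lay in ribosomal DNA, in a tandem repeat of 6 kb or in satellite DNA, and the lists differed in which of these they held. Among scaffold peaks, R273H was the list with most in alpha satellite, R273C the list with most in a 68 bp repeat, and R273C had few peaks over the ribosomal RNA genes that the other 4 lists covered.

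MCF10A is a non-transformed line of mammary epithelial cells. The 5 lines each carried, beside the endogenous gene, a lentiviral p53 with a V5 tag at its C-terminus, and were not treated otherwise. The ectopic p53 was wild type (WTOE, vector pLX304) or had 1 of the changes R273C, R273H, Y220C and Y234C (vector pLenti4/V5-DEST), so that vector and genotype cannot be told apart between WTOE and the mutants. R273 is a residue that touches DNA, while Y220 and Y234 lie elsewhere in the folded DNA-binding domain. Each list came from 1 V5 immunoprecipitation and the line's own input DNA, without replicate libraries, and the control immunoprecipitation of untagged cells was not analysed here. Differences between lists are therefore differences between 5 libraries, and no test of 1 line against another was possible.

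Human ribosomal DNA (rDNA) stands in tandem arrays on the short arms of the acrocentric chromosomes. Each unit holds a 45S gene, whose transcript is cut into 18S, 5.8S and 28S ribosomal RNA, and a long intergenic spacer that separates it from the next 45S gene. Alpha satellite is the tandem repeat of centromeres, and some of its copies carry the CENP-B box, the motif bound by the centromere protein CENP-B. Human satellites 2 and 3 are built on the pentamer GGAAT, and beta satellite on a unit of 68 bp. p53 binds as a tetramer to paired decamers known as half-sites, and is known for activating genes such as CDKN1A, which encodes a cell cycle inhibitor, and MDM2, which encodes its own ubiquitin ligase.

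These sequences are present in many near-identical copies, most of them missing from the reference. Bowtie2, as the authors ran it, places a read with several equally good positions at 1 of them at random, and no filter on mapping quality and no list of excluded regions is stated. A peak on a scaffold therefore stands for a sequence family, and its copies on other scaffolds, on chromosomes and outside the assembly cannot be told apart.

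The sequences at the summits the results turn on are given from the reference genome GRCh38, on the plus strand of the scaffold unless stated. The first set compares copies of the summit with the highest scaffold fold in 4 of the 5 lists. It lies in the 6 kb repeat at KI270743.1:162356-162475, and the other 2 copies, read on the minus strand at GL000214.1:137323-137440 and GL000224.1:5907-6024, are shown with the bases that differ from it in capitals.
KI270743.1 copy: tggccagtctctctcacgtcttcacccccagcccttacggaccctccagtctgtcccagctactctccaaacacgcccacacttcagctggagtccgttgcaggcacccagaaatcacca
GL000214.1 copy: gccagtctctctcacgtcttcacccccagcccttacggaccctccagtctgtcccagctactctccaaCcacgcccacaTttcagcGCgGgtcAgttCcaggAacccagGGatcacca
GL000224.1 copy: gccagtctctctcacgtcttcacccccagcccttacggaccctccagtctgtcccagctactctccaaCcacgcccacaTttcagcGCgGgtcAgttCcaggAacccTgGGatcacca
The GL000214.1 copy differs from the KI270743.1 copy at 10 of 118 aligned bases (identity 91.5%) and the GL000224.1 copy at 11 of 118 (90.7%).

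The second set shows rDNA. The window at GL000220.1:113545-113844 lies in 28S and holds the highest scaffold fold of R273H.
28S window: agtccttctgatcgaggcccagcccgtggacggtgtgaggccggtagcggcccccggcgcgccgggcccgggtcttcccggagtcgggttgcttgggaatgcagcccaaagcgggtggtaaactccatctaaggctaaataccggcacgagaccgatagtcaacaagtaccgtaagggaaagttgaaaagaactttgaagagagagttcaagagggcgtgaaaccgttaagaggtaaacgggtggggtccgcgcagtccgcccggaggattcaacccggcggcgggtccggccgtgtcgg

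The third set shows windows in satellites and tandem repeats. In the 42 bp repeat at KI270467.1:1197-1322 the middle 42 bases are in capitals, and in the 68 bp repeat at GL000225.1:61669-61872 the middle 68 bases. In the alpha satellite at GL000226.1:13785-14084 capitals mark a CENP-B box, searched as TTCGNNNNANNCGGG on both strands. The 1.4 kb repeat is shown at KI270754.1:23697-23896.
42 bp repeat window: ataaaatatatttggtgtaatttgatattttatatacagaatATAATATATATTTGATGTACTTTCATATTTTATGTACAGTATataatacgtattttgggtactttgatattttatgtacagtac
68 bp repeat window: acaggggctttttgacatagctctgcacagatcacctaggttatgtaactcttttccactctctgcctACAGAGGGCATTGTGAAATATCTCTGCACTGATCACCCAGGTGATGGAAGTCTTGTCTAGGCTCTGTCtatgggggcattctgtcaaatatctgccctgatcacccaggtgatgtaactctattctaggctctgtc
Alpha satellite window: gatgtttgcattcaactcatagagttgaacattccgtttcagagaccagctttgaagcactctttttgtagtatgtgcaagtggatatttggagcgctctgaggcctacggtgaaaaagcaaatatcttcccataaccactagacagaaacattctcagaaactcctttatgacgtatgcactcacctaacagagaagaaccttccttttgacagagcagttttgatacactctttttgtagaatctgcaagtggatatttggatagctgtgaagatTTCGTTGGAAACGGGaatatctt
1.4 kb repeat window: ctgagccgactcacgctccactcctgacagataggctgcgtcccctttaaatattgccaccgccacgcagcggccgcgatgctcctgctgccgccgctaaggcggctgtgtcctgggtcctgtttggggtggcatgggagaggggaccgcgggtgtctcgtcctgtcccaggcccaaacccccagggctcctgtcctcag
In the 42 bp window the middle unit was 85.7% identical to the first and 83.3% to the last, and in the 68 bp window it was 79.4% identical to the last and 23.5% to the first. None of the 6 windows read at these summits held the p53 half-site decamer.

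The lists differed in size, from 733 peaks in R273C to 25309 in R273H, with 1575 in Y220C, 2145 in Y234C and 11277 in WTOE. The paper gives a smaller count for Y220C than the list used here, and the same counts for the other lists. The depth of each library was not among the deposited values. The authors give read totals and duplication rates only as ranges over the ChIP-seq samples, and the range of duplication rates is wide. Neither was given by library, so their part in the differences between lists was not tested. Peaks were counted from 2500 bp before the start of a gene to its end, so promoter and gene body were not told apart. CDKN1A had a peak there in WTOE and R273H and in none of the other lists, and MDM2 had 1 peak each in WTOE and Y234C. The RNA table of 13 lines was used to check the labelled cell type, with values as log2(TPM + 1). Of 8 basal epithelial markers, 5 were at 1 or above in all 13 lines, KRT5 at 9.98 to 11.9, while KRT14, TP63 and CDH1 fell under 1 in the lowest line (0, 0 and 0.254). Of 6 markers of other cell types none reached 1 in all lines, the leukocyte genes PTPRC and CD3E were at 0 in every line, and the highest value was 2.60 (PDGFRB). In all lists together 0 peaks lay on MT.

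Peaks were denser on scaffolds than on chromosomes in all 5 lists. WTOE had 388 scaffold peaks, or 35.4 per Mb, against 3.71 per Mb of chromosome. R273C had 236, or 21.5 against 0.169 per Mb, and R273H had 523, or 47.7 against 8.44 per Mb. Y220C had 203, or 18.5 against 0.467 per Mb, and Y234C had 282, or 25.7 against 0.634 per Mb. The density on scaffolds thus spanned 18.5 to 47.7 per Mb over lists whose density on chromosomes spanned 0.169 to 8.44 per Mb, and the list with the fewest peaks had the largest ratio of scaffold to chromosome density (127) and the list with the most peaks the smallest (5.65). The mean log2 ratio was 4.68 ± 1.80 (SD, n = 5 lists), with an exact two-sided sign-flip permutation p of 0.0625, the smallest that 5 lists can give. Counting error alone put the scaffold share between 28.8 and 35.7% in R273C, 11.3 and 14.6% in Y220C, 11.7 and 14.7% in Y234C, 3.11 and 3.79% in WTOE and 1.90 and 2.25% in R273H (exact 95% binomial intervals). Summits that share an interval are not independent, so these intervals are too narrow. With such rows joined the share was 2.179% in WTOE and 1.31% in R273H, and without rDNA summits it was 7.75% in Y220C and 8.26% in Y234C.

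The median fold of scaffold peaks was below that of chromosome peaks in each list, and their median -log10 q was above it, with 5 lists too few to pass a threshold of 0.05. The median fold was 2.65 on scaffolds against 3.08 on chromosomes in WTOE, 1.79 against 2.05 in R273C, 4.22 against 4.55 in R273H, 2.57 against 3.31 in Y220C and 2.89 against 3.62 in Y234C. The difference of the log2 medians averaged -0.24 ± 0.10 (SD, n = 5 lists) and was below 0 in 5 of 5. The median -log10 q was 7.76 against 2.09 in WTOE, 4.94 against 3.91 in R273C, 5.91 against 3.36 in R273H, 11.4 against 2.98 in Y220C and 11.1 against 3.21 in Y234C. This difference averaged 5.11 ± 3.25 and was above 0 in 5 of 5, and both differences had an exact two-sided sign-flip p of 0.0625. Without the rDNA summits the -log10 q difference averaged 1.63. Over rows, the median length of the interval that held the summit was 788 to 1088 bp on scaffolds against 377 to 563 bp on chromosomes, where an interval with several summits counts once for each.

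**Figure D1:**
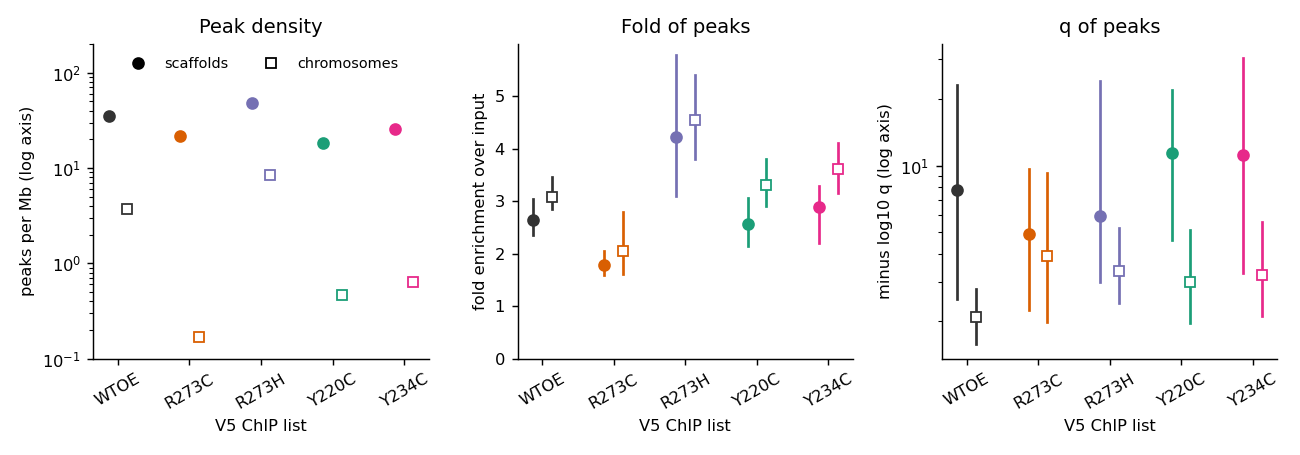
Peaks per Mb on a log axis (left), fold enrichment over input (middle) and -log10 q on a log axis (right) in each of the 5 V5 ChIP lists, with filled circles for scaffolds and open squares for chromosomes. Points in the middle and right panels are medians over peaks and lines run from the lower to the upper quartile. In every list the scaffold point is above the chromosome point in the left and right panels and below it in the middle panel.

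Peaks were found on 82 of the 169 scaffolds, and these held 88.0% of the scaffold bases. Their median length was 93.2 kb, against 2.38 kb for the 87 scaffolds without a peak. The 10 scaffolds with most peaks held 1185 of the 1632 (72.6%), and the 15 scaffolds with a peak in every list held 1235 (75.7%). A further 36 scaffolds had peaks in a single list, which was R273H for 25 of them, WTOE for 5 and R273C for 4. The number of scaffolds with a peak was 65 in R273H, 39 in WTOE, 32 in Y234C, 30 in Y220C and 28 in R273C.

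The rDNA scaffolds KI270733.1 and GL000220.1 led in 4 lists. KI270733.1 had 66 peaks in WTOE, 31 in R273C, 77 in R273H, 51 in Y220C and 67 in Y234C, and GL000220.1 had 62, 33, 78, 49 and 62 in the same order. In R273C the leading scaffold was instead GL000225.1, assigned to chromosome 14 without a position, which had 54 peaks there and 12, 28, 5 and 12 in WTOE, R273H, Y220C and Y234C. GL000226.1, an alpha satellite scaffold, had 22 peaks in R273H and 0 in each other list. KI270712.1 had 19 peaks in WTOE, 23 in R273H and 7 in Y234C, but 0 in R273C and Y220C.

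**Figure D2:**
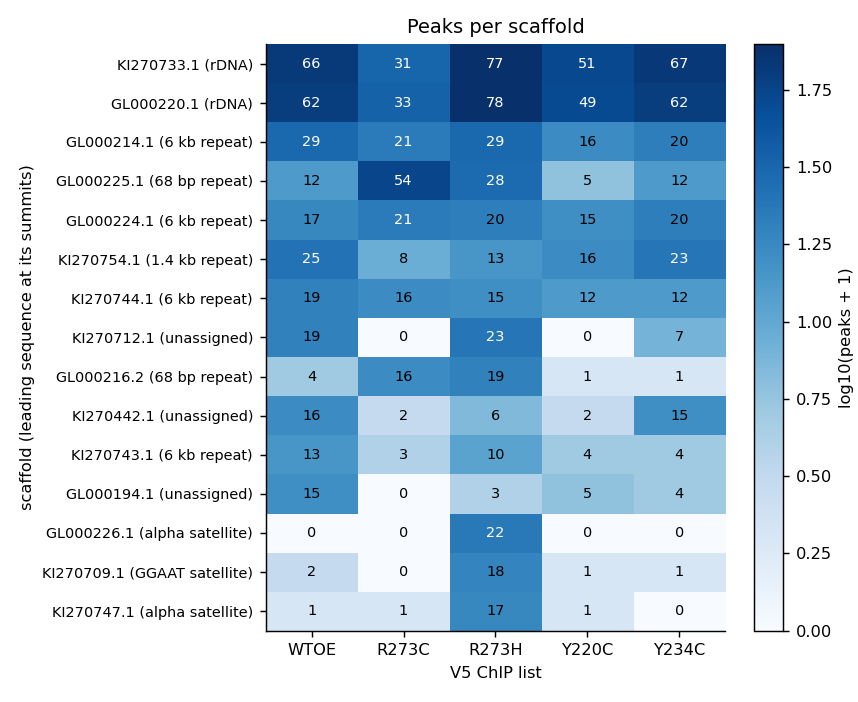
Number of peaks on each of the 15 scaffolds with most peaks (rows, with the sequence family that leads at their summits) in each V5 ChIP list (columns), shaded by log10(peaks + 1). The 2 rDNA scaffolds are darkest in 4 lists, and GL000225.1 has 54 peaks in R273C.

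Grouped by the sequence at their summits, rDNA was the largest assigned family of scaffold peaks in 4 lists. It held 122 of 388 peaks in WTOE (31.4%), 144 of 523 in R273H (27.5%), 97 of 203 in Y220C (47.8%) and 128 of 282 in Y234C (45.4%), and 60 of 236 in R273C (25.4%). The 6 kb repeat held 76, 60, 71, 50 and 55 peaks in WTOE, R273C, R273H, Y220C and Y234C. The 68 bp repeat held 65 peaks in R273C (27.5%), the largest family of that list, and 9, 32, 2 and 10 in WTOE, R273H, Y220C and Y234C. Alpha satellite held 95 peaks in R273H (18.2%) and 0, 4, 2 and 1 in WTOE, R273C, Y220C and Y234C. GGAAT satellite held 46 peaks in R273H and 17 in R273C, and 4, 4 and 3 in WTOE, Y220C and Y234C. The 1.4 kb repeat held 25, 8, 13, 16 and 23 in the order WTOE, R273C, R273H, Y220C and Y234C. The 42 bp repeat held 0, 1, 11, 6 and 4 and DUX4-like sequence 3, 0, 3, 1 and 4 in that order. A sequence of none of these families was found at 149 WTOE peaks, 21 R273C peaks, 108 R273H peaks, 25 Y220C peaks and 54 Y234C peaks. Of this last kind KI270712.1 carried 15 in WTOE and 19 in R273H, and GL000194.1 carried 15 in WTOE and 3 in R273H.

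**Figure D3:**
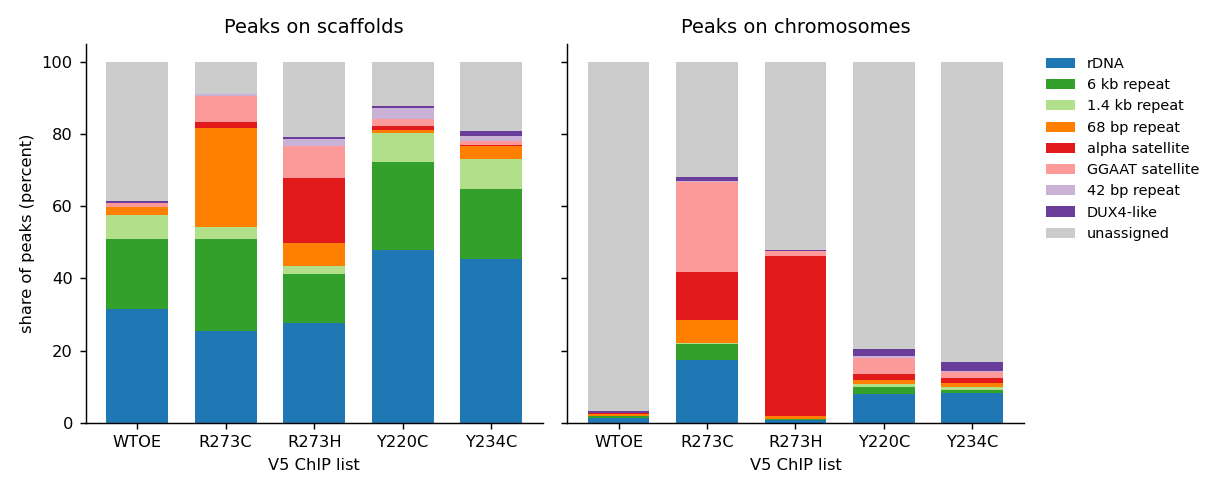
Share of peaks (percent) by the sequence family at the summit, for peaks on scaffolds (left) and on chromosomes (right), in each V5 ChIP list. On scaffolds rDNA takes 25.4 to 47.8% of every list, the 68 bp repeat 27.5% of R273C and alpha satellite 18.2% of R273H, while on chromosomes alpha satellite takes 44.5% of R273H and GGAAT satellite 24.9% of R273C.

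The rDNA unit of GL000220.1 runs from 105424 to 149395 (43972 bp) and begins with a 45S gene that is 99.3% identical to RNA45SN2 of chromosome 21. That of KI270733.1 runs from 122273 to 167354, with a 45S gene 99.4% identical. R273H had the highest folds in rDNA, with a median of 6.70 over its 144 summits, against 2.99 in Y234C, 2.59 in WTOE, 2.50 in Y220C and 1.64 in R273C, and it was also the list with the highest median fold on chromosomes. Its median fold was higher in 45S (8.08 on GL000220.1, 8.41 on KI270733.1) than in the intergenic spacer (5.74 and 4.66), while in WTOE the values were 2.52 and 2.64 in 45S and 2.59 and 2.54 in the spacer. The highest scaffold fold of R273H, 11.9, lay in 28S at GL000220.1 position 113695, and ranked 75 among all its peaks.

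R273C covered little of the 45S gene. On GL000220.1 its peak intervals covered 6.90% of 45S and 44.5% of the spacer, and on KI270733.1 7.87% and 42.6%. Of 18S alone they covered 31.7% on GL000220.1 and 56.3% on KI270733.1, where the other lists covered 59.0% or more. On both scaffolds they covered 0% of the 5' external spacer and of 5.8S, and of 28S they covered 6.47 and 0%. WTOE covered 57.2 and 60.8% of 45S on the respective scaffolds, R273H 76.2 and 71.2%, Y220C 45.1 and 43.9% and Y234C 58.3 and 66.2%. In these 4 lists the spacer was covered to 52.1% or more. Cover was read over 7 copies of 45S. Of these, 4 lie on these scaffolds (1 whole and 1 cut short at the scaffold end on each). The other 3 are the copies annotated on chromosome 21 as RNA45SN1 to RNA45SN3, and that chromosome was not searched for further copies. Over these copies R273C covered 0 to 10.8%, with 0 to 4 summits a copy, and the other lists 38.8 to 77.0%, with 8 to 17 summits a copy. In the stretch from 1000 bp before to 500 bp after the 45S start, which holds the promoter, R273C covered 0% in all 7 copies. R273H covered 100% in all 7, WTOE 95.5 to 100%, Y234C 96.4 to 100% and Y220C 26.3 to 100%. The R273C list also had the lowest folds and the fewest peaks of the 5 lists, and the part of the list's strength in this gap was not tested. The copies share reads, so they are not replicates of 1 another.

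Some positions of the unit held a summit in every list. The 551 rDNA summits on the scaffolds were grouped into 139 sites, each reaching at most 75 bp to either side of 1 summit position. Sites that held the most lists were taken first, which favours sites with every list. The share expected from the density of summits was not computed. Of the 139 sites, 19 had a summit in all 5 lists and 64 in a single list. Of the 19, 16 lay in the intergenic spacer and 3 in 18S, and they held 173 of the summits (31.4%). The WTOE peak with the smallest q of its whole list lay in the spacer at GL000220.1 position 144958, with -log10 q of 113 and a fold of 3.45. In Y234C the smallest q was also in the spacer, at position 119931, with -log10 q of 167.

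Alu elements derive from the RNA of RN7SL1. Matches to it made up 3.397% of the spacer bases of GL000220.1 and 3.31% of those of KI270733.1. On GL000220.1 they held 6 of 30 spacer summits in WTOE, 7 of 28 in R273C, 3 of 43 in R273H, 5 of 26 in Y220C and 1 of 31 in Y234C. On KI270733.1 they held 2 of 32, 1 of 27, 2 of 41, 1 of 24 and 1 of 30 in the same order, so the shares on the first scaffold were not seen on the second.

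Chromosome 21 of the reference carries further rDNA, and its peaks numbered 144 in WTOE, 86 in R273C, 191 in R273H, 111 in Y220C and 152 in Y234C. Their median folds were 2.56, 1.63, 6.79, 2.65 and 2.94, close to those on the scaffolds (2.59, 1.64, 6.70, 2.50 and 2.99). R273H was highest and R273C lowest under both names of this sequence, whose copies divide 1 set of reads between them.

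**Figure D4:**
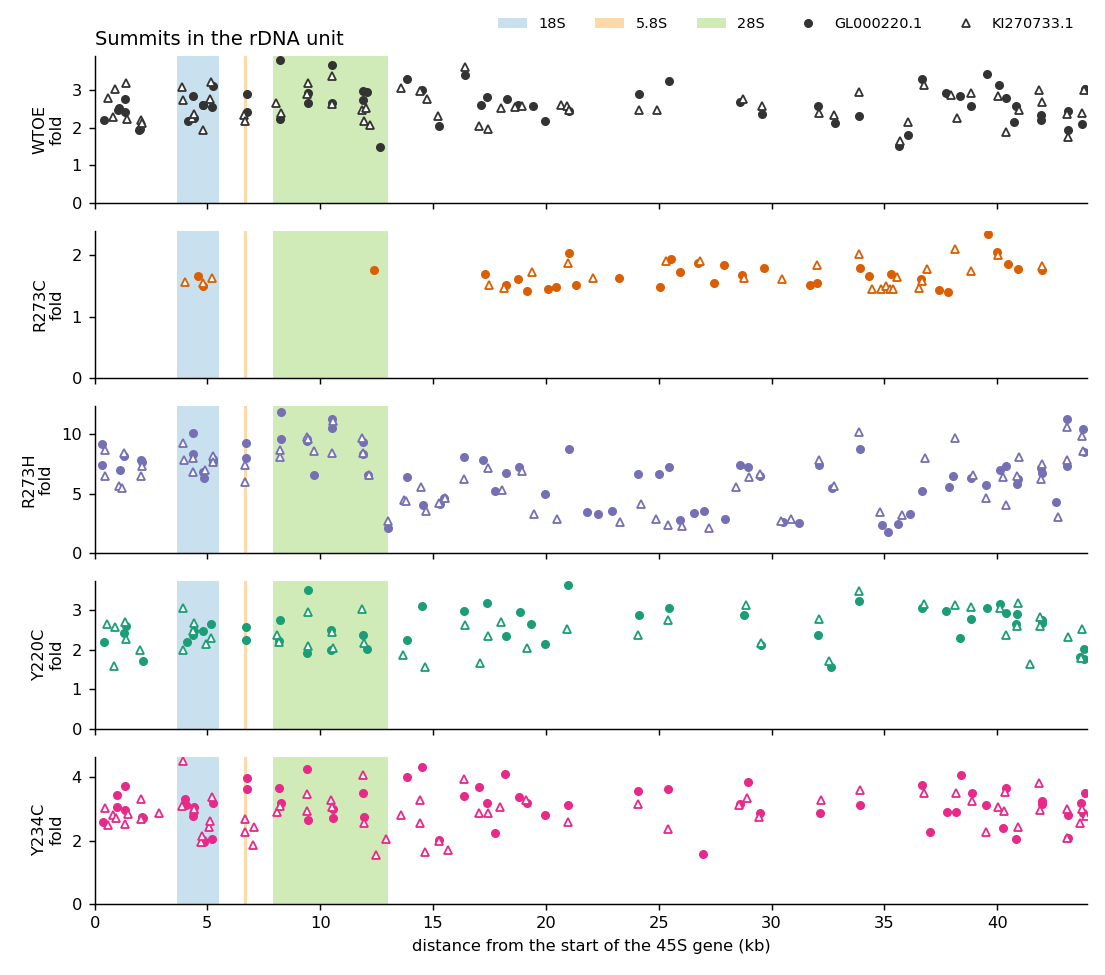
Fold enrichment over input of each rDNA summit (vertical axes, 1 panel a list, each with its own scale) by its distance in kb from the start of the 45S gene. Filled circles are summits on GL000220.1 and open triangles those on KI270733.1, and shaded bands mark 18S, 5.8S and 28S. R273C has 2 and 3 summits in the 45S gene of the whole units, where the other lists have 10 to 17.

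The 6 kb repeat (unit of 6296 bp) lies on 6 scaffolds, with 82.2 kb in all, and also on chromosome 4 (99 peaks), chromosome 22 (34) and chromosome 21 (8). With sites grouped as for rDNA, it had a summit of every list at 13 of its 42 sites. These held 229 of its 312 scaffold summits (73.4%). Each list had 50 to 76 summits in this unit, and the share of common sites expected from that density was not computed. The copy on KI270743.1, with the highest scaffold fold in every list but R273H, had a fold of 6.59 in WTOE, 7.04 in R273C, 8.93 in R273H, 5.27 in Y220C and 5.90 in Y234C. In R273C this was the highest fold of the whole list, above the highest on any chromosome (6.16), and it ranked 5 in WTOE, 19 in Y220C and 31 in Y234C. Among the copies printed above, the GL000214.1 copy had a fold of 3.0 in WTOE, 10.1 in R273H, 3.12 in Y220C and 2.78 in Y234C and no summit in R273C. The same bases stand at GL000214.1:125021-125138 and 131013-131130, where R273H had 4.97 and 4.69, so identical copies differed in fold. The printed GL000224.1 copy had no summit in any list. Related stretches next to the printed copies did have summits. R273C had a fold of 2.44 at GL000214.1:137176-137292. At GL000224.1:5760-5876 R273H had 4.87, Y234C 2.07, Y220C 1.73 and R273C 1.51. At the same position of the unit R273C also had folds of 1.77 and 1.66 on other copies of GL000214.1 and 1.64 on KI270744.1, each the lowest of the lists with a summit there.

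The 1.4 kb repeat (unit of 1409 bp) held all 85 peaks of KI270754.1, and its copies on chromosome 21 had 47 peaks. Its median fold on the scaffold was 3.01 in WTOE, 2.27 in R273C, 4.82 in R273H, 3.03 in Y220C and 2.94 in Y234C. Sequence like DUX4, a gene of a subtelomeric repeat, was found at no more than 4 scaffold summits a list, and its chromosome copies lay mainly on chromosomes 10 (85 peaks) and 4 (67).

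The 68 bp repeat of R273C lay mainly on GL000225.1. Over its 65 scaffold summits the median fold was 1.87, and the highest 2.68, while in R273H the 32 summits had a median of 2.46. On chromosomes the 68 bp repeat held 206 summits in R273H, 50 in WTOE, 32 in R273C, 17 in Y234C and 16 in Y220C, so R273C had the most summits in it on scaffolds but not on chromosomes. The smallest q of R273C on a scaffold was in GGAAT satellite on KI270438.1, where the -log10 q was 76.0 at a fold of 1.51. The smallest q of the whole Y220C list lay in the 42 bp repeat at KI270467.1 position 1260, a scaffold of 3920 bp with 19.0% G and C in the printed window, with -log10 q of 233 at a fold of 1.86. At the same scaffold Y234C reached -log10 q of 89.7 at a highest fold of 1.46, R273H 26.0 at 1.57, and WTOE and R273C had no peak. By fold these peaks were among the lowest of their lists, with ranks of 621 of 733 in R273C and 1484 of 1575 in Y220C.

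Alpha satellite peaks of R273H were found mainly on scaffolds with CENP-B boxes. Of the 89 alpha satellite scaffolds, 57 had at least 1 box, and R273H had 102 peaks on 22 of them (105 per Mb). On the 32 without a box it had 5 peaks on 2 scaffolds (10.4 per Mb). The other lists had 0 to 6 peaks on the first group and 0 to 2 on the second. KI270715.1 (386 boxes) and KI270716.1 (314 boxes) had 17 peaks each in R273H and 0 in the other lists, GL000226.1 had 44 boxes and 22 peaks, but KI270538.1 had 35 boxes and 0 peaks. Within 300 bp windows at the summits, 61 of 95 alpha satellite windows of R273H held a box (64.2%), against 26.7% of all 300 bp tiles of these scaffolds. The summit was within 50 bp of a box in 22 of the 95 (23.2%), against 8.70% of the bases. In 65 of the 95 it was within 150 bp, at a median distance of 80 bp. Both backgrounds are over all 89 scaffolds, with or without a box. Many of the windows lay on scaffolds rich in boxes, such as GL000226.1 (22 windows, 2.93 boxes per kb), KI270715.1 (16, 2.39) and KI270716.1 (15, 2.04). The shares expected on those scaffolds were not computed, so a preference of summits for boxes was not tested. On chromosomes 11027 of the R273H peaks lay in alpha satellite, and 7783 of these windows held a box (70.6%). Over all its chromosome windows the share was 50.4%. Chromosome alpha satellite windows of the other lists were fewer but also held boxes. They did so in 41 of 66 in R273C (62.1%), 12 of 25 in Y234C (48.0%), 8 of 23 in Y220C (34.8%) and 1 of 24 in WTOE (4.17%). These are counts over copies that share reads, and were given no test.

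**Figure D5:**
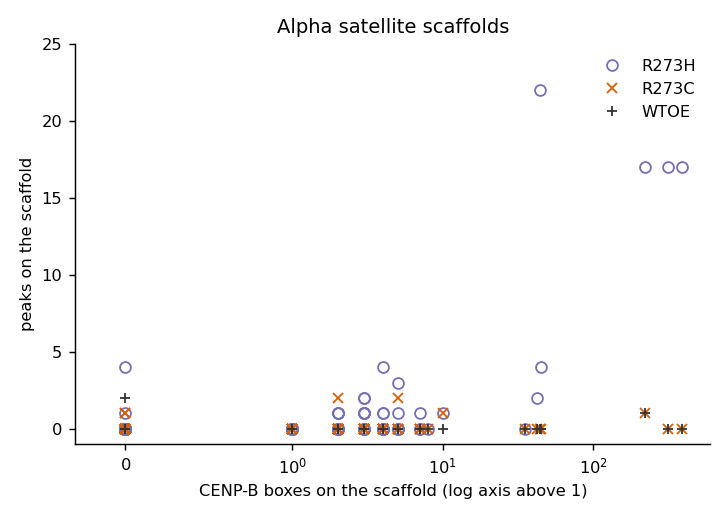
Peaks on each of the 89 alpha satellite scaffolds (vertical axis) by the number of CENP-B boxes on the scaffold (horizontal axis, log above 1) for R273H (circles), R273C (crosses) and WTOE (plus signs). R273H reaches 17 to 22 peaks on 4 scaffolds with 44 to 386 boxes, and R273C and WTOE stay at 2 or fewer.

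The half-site of p53, searched as its consensus decamer on both strands, was less frequent in scaffold windows than in chromosome windows of each list. It was found in 3.61% of 300 bp scaffold windows and 6.96% of chromosome windows in WTOE, 3.81 and 8.05% in R273C, 7.65 and 15.5% in R273H, 2.46 and 6.34% in Y220C and 2.13 and 6.71% in Y234C. In all, 74 of 1632 scaffold windows held it (4.53%), against 6.58% of all 300 bp tiles of the scaffolds and 6.63% of RefSeq promoters of 300 bp. In R273H, 26.3% of the alpha satellite windows held it, against 9.54% of the tiles of alpha satellite scaffolds. That background is over all scaffolds of this class, and the share on those that held the windows was not computed. A match is a description of the letters and not a bound site.

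The share of scaffold intervals that overlapped another list was above that of the whole list in 4 of the 5 lists, and this was given no test. In WTOE 141 of 228 scaffold intervals overlapped an interval of another list by at least 1 bp (61.8%), where the share over all its intervals was 10.9%. In R273H 126 of 287 did (43.9%), against 4.95%, in Y220C 124 of 129 (96.1%), against 54.7%, and in Y234C 146 of 166 (88.0%), against 48.7%. In R273C it was 112 of 149 (75.2%), near the 79.5% of its whole list. Joined across lists, the intervals gave 455 scaffold regions, of which 38 were found in all 5 lists, 25 in 4, 29 in 3, 53 in 2 and 310 in 1. Of the 38, 21 lay in the 6 kb repeat and 9 in rDNA, and they stood on 10 scaffolds.

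RNA of these sequences could be read for few genes. Of 13 genes of 5.8S type in the RNA table, 1 was above 0 in any line (RNA5-8SP6), and the table lists 0 genes for 45S, 18S or 28S. Of 42 DUX4 and DUX4-like genes, DUX4L50 alone was above 0, at 2.71 on the log2(TPM + 1) scale in R273C and 0 in every other line. With 1 RNA library a line this value has no replicate, and fewer cells with the transcript and less RNA per cell cannot be told apart. The gene annotation used here has 0 genes on scaffolds, so no scaffold peak was assigned to a gene other than by its match to rDNA.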

How the data were processed

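V5 ChIP-seq of 5 MCF10A lines was used, with 1 library per line and its input. The authors aligned read pairs end to end to GRCh38 with Bowtie2 2.1.0 and kept primary alignments only (SAMtools 1.7). Peak calling by the authors used MACS2 2.1.2.20181017 on fragments, each line against its input, with a q limit of 0.05 and 1 row per summit. Duplicates were measured and are not stated to have been removed. The deposited fold enrichment is the ratio of ChIP to input at the summit. MACS2 also gave the -log10 p and -log10 q that the authors deposited for each summit. The deposited score is the -log10 q multiplied by 10. The RNA values are the authors' log2 of TPM plus 1, after STAR, and served only as a check. HOMER 4.9.1 output was not used here.

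All 41039 peak rows lay within the sequence of that name in the reference given, and 0 lay outside. A scaffold was called rDNA by BLAST matches of at least 95% identity to the 45S gene, and GGAAT satellite where the pentamer filled at least 10% of its bases. It was called alpha satellite where its bases matched those 169 to 173 bp further on at 40% or more. Each summit took its family from a BLAST match of its 300 bp window over at least 150 bp. The identity had to be at least 95% to rDNA, or at least 85% to the 6 kb or 1.4 kb repeat or DUX4. Windows without a match were called GGAAT satellite where the pentamer filled at least 20% of the 300 bp. The rest were called by self-identity over 600 bp, in the order given here. The distances were 42 bp (60%), then 169 to 173 bp (50%), then near 68 bp or its multiples, whichever was highest (45%). The repeats of 6 kb, 1.4 kb, 68 bp and 42 bp were added after the data were seen, and are named by their unit length because no repeat annotation was used here. A site took the summits within 75 bp to either side of 1 summit position in a unit. Positions that held the most lists, and then the most summits, were taken first. Differences of scaffold from chromosome medians were tested over the 5 lists with an exact two-sided sign-flip permutation test. The test was checked on small sets of values with known answers. Python 3.11.15, numpy 2.4.6, pandas 2.3.3, scipy 1.17.1, pysam 0.24.0, BLAST 2.17.0, samtools 1.23.1 and matplotlib 3.10.9 were used. Sites named are the highest by fold or by -log10 q in each list and those with a summit in every list, and the other scaffolds and copies named were chosen after their values were seen. The members and lists were chosen with earlier results of these data known. The depth of each library was not used, so intervals cover counting error only. Alternatives were joining of rows with 1 interval, a stricter q, a stricter overlap, and leaving out a list, KI270733.1, MT or rDNA.
Some items are not reported here.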

Additional observations from a re-analysis of the deposited data

How the results depend on the processing

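The 3 differences between scaffolds and chromosomes kept their direction under every alternative run. Without each list in turn, the log2 fold difference was -0.28 to -0.21, that of -log10 q 4.28 to 6.13 and that of log2 peaks per Mb 4.10 to 5.22. With the mean in place of the median, the -log10 q difference was below 0 in R273C. The scaffold shares moved more. With rows of 1 interval joined they were 2.179% in WTOE, 28.6% in R273C, 1.31% in R273H, 9.97% in Y220C and 9.64% in Y234C, so the number of summits per interval raised them. At a -log10 q of at least 2 the share was 4.99% in WTOE and 16.1% in Y220C. Without KI270733.1 it was 2.87% in WTOE, 1.77% in R273H, 9.97% in Y220C and 10.35% in Y234C. Without rDNA summits, an alternative chosen after seeing the data, it was 2.42% in WTOE, 1.52% in R273H, 7.75% in Y220C and 8.26% in Y234C. At an overlap of 50% of both intervals, the scaffold intervals shared with another list were 52.6% in WTOE, 44.3% in R273C, 34.8% in R273H, 84.5% in Y220C and 73.5% in Y234C. A GGAAT limit of 20% gave R273H 30 peaks on such scaffolds in place of 31 and left the other lists as they were. No paired analysis was possible because there is 1 library per line, so the lines share fewer than 2 replicate numbers. The scaffold and chromosome values of a list were compared within that list. With 1 library per line the spread between replicates is unknown, and p could not fall below 0.0625.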
